A study of Paramacrobiotus metropolitanus with 7 samples.

Results

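PARRI_0005796.t1 is the transcript that the study proposed as the Dsup ortholog of the tardigrade Paramacrobiotus metropolitanus, and it is called PmDsup here. It was taken by its identifier, 1 of the 26306 transcripts and 24899 gene identifiers of the expression matrix, and it is the 1 transcript listed for its locus. The study had already reported it as higher in females from these same libraries. The comparison of the sexes below is therefore not an independent test. Damage suppressor (Dsup) was first described in another tardigrade, Ramazzottius varieornatus, as a nuclear protein. Cultured human cells that carry it take less DNA damage from X-rays. The protein was later reported to bind nucleosomes and to shield DNA from hydroxyl radicals. Dsup proteins are largely disordered and diverge quickly in sequence. The study looked for the P. metropolitanus gene by shared gene order with Hypsibius exemplaris. According to the study, NCBI annotates the protein as a transcriptional regulatory protein, AlgP. The study reported no recognised domain, no match to known proteins at its cutoff, predicted disorder along the length of the protein and a predicted nuclear location. The role of PmDsup as a Dsup was not tested in these data.

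RNA-Seq was made from whole adult females (3 libraries) and whole adult males (4 libraries) of the TYO strain. The species has separate sexes, and the animals were hatched and kept singly until the gonads showed their sex. Each library came from a tube of pooled animals of one sex, with poly A selection and no treatment. Whether the tubes came from separate cultures is not given, so p-values measure the spread between these libraries. The values are TPM, a share of all transcripts corrected for transcript length, and were rescaled between libraries by the authors with the TMM method, so a library summed to between 891117 and 1127677. They keep no read depth. Because whole animals were used, more cells that carry a transcript and more RNA per cell cannot be told apart. Over the 18420 transcripts with at least 1 TPM in at least 3 libraries, 4410 passed an FDR of 0.05 in limma with the higher level in females and 4662 with the higher level in males (3065 when male replicate 1 was dropped), and at the median the log2 difference (females minus males) stood at -0.50. Of 5 DMRT orthologs, a family of sex-related transcription factors that the study described from the same libraries, 3 were called higher in males and 0 in females. Each of the 3 met the minimum of 1 TPM in 3 libraries only with male libraries, where it is high. These calls therefore carry no weight.

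PmDsup was expressed in every library and was higher in females. It had 205, 294 and 345 TPM in female libraries 1 to 3, against 70.1, 93.8, 83.8 and 82.5 TPM in male libraries 1 to 4. The lowest female library was 2.18 times the highest male library, a gap of 111 TPM, which was more than the whole range of 23.7 TPM among males and less than the range of 140 TPM among females. Over the 12 possible pairs of a female and a male library, the ratio lay between 2.18 and 4.92. The mean was 281 ± 70.9 TPM in females (SD, n = 3) and 82.5 ± 9.70 TPM in males (SD, n = 4), a ratio of 3.41.

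**Figure D1:**
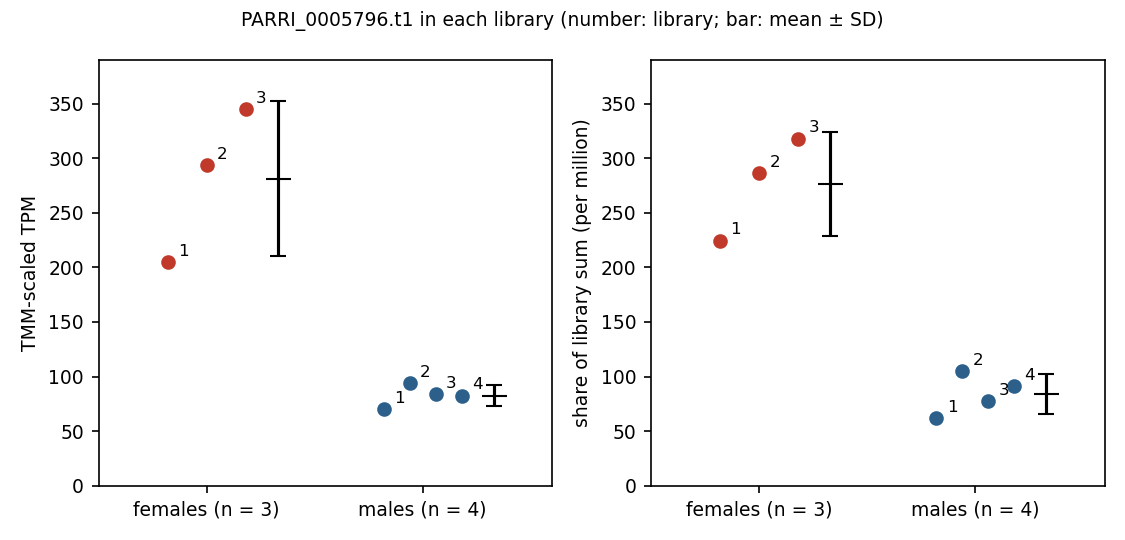
PmDsup (PARRI_0005796.t1) in each library of females (red) and males (blue), with the library number beside each point and the mean ± SD as a black bar. The left panel gives TMM-scaled TPM and the right panel the share of the library sum, in ppm. The female libraries lie between 205 and 345 TPM and the male libraries between 70.1 and 93.8 TPM, without overlap on either scale.

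The female libraries also stood apart when the TMM scaling was undone. As a share of each library's own sum, PmDsup took 224, 286 and 318 ppm in female libraries 1 to 3 and 62.2, 105, 77.3 and 91.3 ppm in male libraries 1 to 4. The mean share was 276 ± 47.6 ppm in females (SD, n = 3) and 84.0 ± 18.5 ppm in males (SD, n = 4), a ratio of 3.29. The scaling did change which sex looked steadier. The coefficient of variation was 25.2% in females and 11.8% in males with TMM, and 17.2% in females and 22% in males as shares of the library sum. Male library 1 was the lowest library on both scales.

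The authors' deposited mean normalized count, which is not corrected for length, was 2773 in females and 736 in males. If reads were drawn at random, counts of that size would carry a counting SD of 1.90% and 3.69% of the value. This covers counting error only, not the spread between libraries.

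PmDsup was among the more abundant transcripts of both sexes, and it stood higher in the order of transcripts in females. Counted from the highest value, it was number 692, 517 and 438 of 26306 in female libraries 1 to 3, and number 2265, 1482, 1886 and 1671 in male libraries 1 to 4. It therefore lay within the top 1.67% to 2.63% of transcripts in females and within the top 5.63% to 8.61% in males. Ranks do not depend on how a library is scaled, and the female and male ranks did not overlap. Set against the median of the transcripts above 0 in the same library, PmDsup was 27.1, 35.7 and 47.7 times that median in female libraries 1 to 3 and between 8.74 and 11.8 times in the male libraries.

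**Figure D2:**
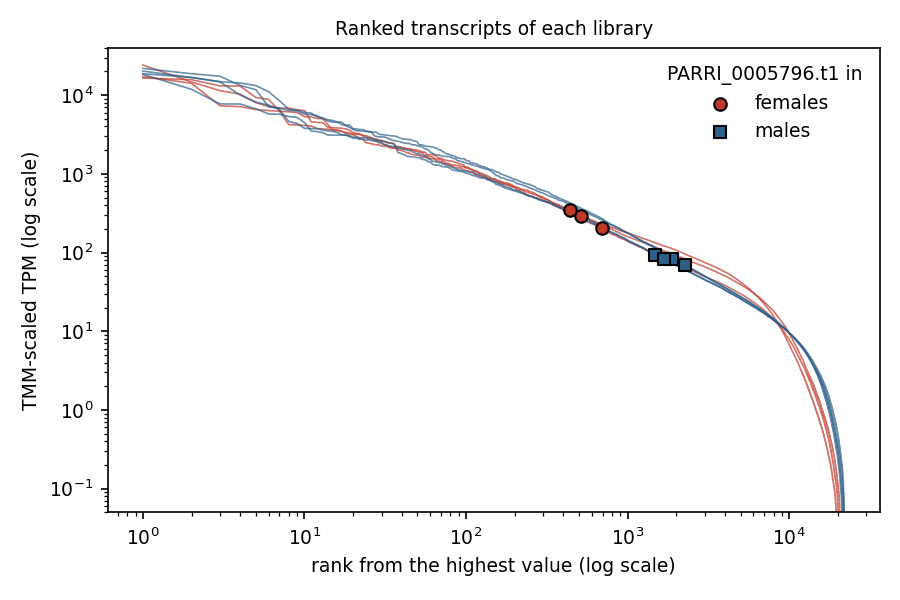
TMM-scaled TPM of every transcript above 0, ranked from the highest value, in each female (red line) and male (blue line) library, with both axes on a log scale. Circles mark PmDsup in female libraries (ranks 438 to 692) and squares mark it in male libraries (ranks 1482 to 2265).

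The sexes were compared over all 18420 tested transcripts with limma on log2(TPM + 0.1). PmDsup had a log2 difference, females minus males, of 1.74 with a standard error of 0.25 and a 95% interval of 1.16 to 2.32. This is 3.34-fold, with an interval of 2.23 to 5.01, at a limma FDR of 0.0013 over all transcripts. Every female library was above every male library. Such a call is common in these data, since 23.9% of the tested transcripts passed with the higher level in females and 25.3% with the higher level in males. Likewise 25.9% of the tested transcripts had their lowest female library above their highest male library. An exact permutation test of PmDsup alone, over the 35 ways to split 7 libraries into 3 and 4, gave a two-sided p of 0.0571, which is the smallest p that this design allows and cannot pass 0.05. Dropping any 1 of the 7 libraries kept its log2 difference between 1.58 and 1.95 and its limma FDR between 0.00055 and 0.0067.

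The size of the difference was near the middle of the transcripts called higher in females, whereas the level of PmDsup was among the higher ones. Its log2 difference of 1.74 was close to the median of 1.78 over the 4410 such transcripts, and 51.2% of them had a larger one. Over all tested transcripts, 13.1% had a larger difference than PmDsup, which was 2.24 above the median of all. The median log2 difference varied with the level of the transcripts. It was -1.17 for a mean between 1 and 10 TPM, 0.37 between 10 and 100 TPM and -0.31 between 100 and 1000 TPM. In the class with a mean between 100 and 1000 TPM over the 7 libraries, where PmDsup lies with 168 TPM, 254 of 1489 transcripts were called higher in females, or 17.1%, and 9.27% had a larger difference. In the class between 10 and 100 TPM, 38.2% were called higher in females. In females, 132 of the transcripts called higher there had a higher mean than PmDsup, and 98 of these also had a larger difference. Among the 266 transcripts called higher in females with a mean of at least 100 TPM, PmDsup was number 142 by its difference. The next above it was PARRI_0002123.t1, with 229 TPM in females and 67.6 TPM in males, and the next below it was PARRI_0008726.t1, with 231 TPM in females and 70.3 TPM in males. PARRI_0008726.t1 lost its call when female replicate 3 was dropped (limma FDR 0.063). The files give no name or role for either.

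**Figure D3:**
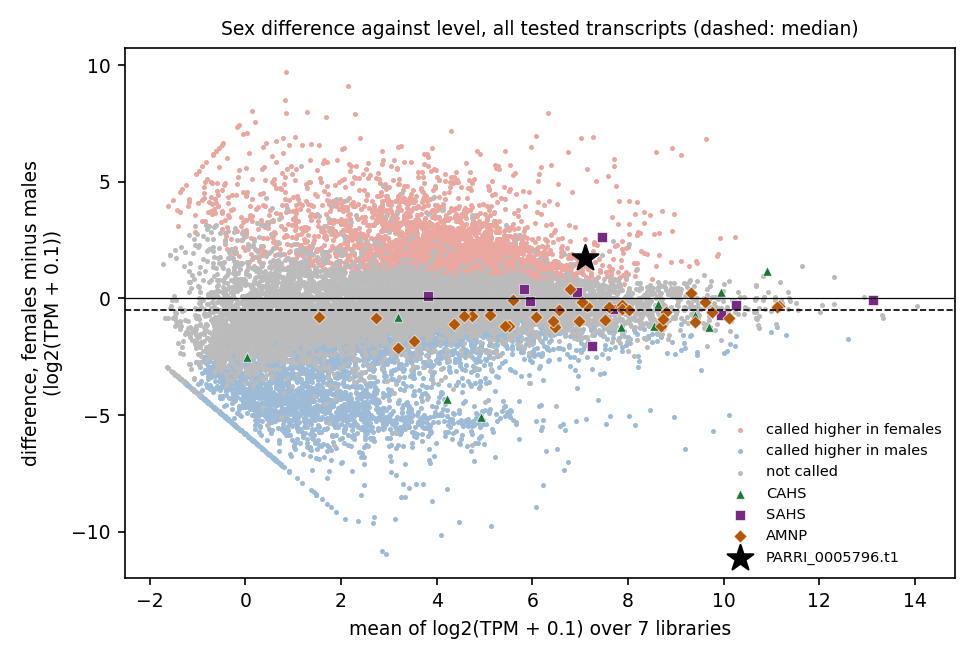
Log2 difference between the sexes (females minus males, vertical axis) against the mean of log2(TPM + 0.1) over the 7 libraries (horizontal axis) for the 18420 tested transcripts, coloured by their limma call. The star is PmDsup at a difference of 1.74, triangles, squares and diamonds are CAHS, SAHS and AMNP transcripts, and the dashed line is the median of -0.50.

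With TMM scaling, PmDsup differed less between the male libraries than most transcripts did, while as a share of the library sum its coefficient of variation in males was the 22% given above. Its SD on the log2 scale was 0.39 in females and 0.17 in males, against medians of 0.63 in females and 0.43 in males over all tested transcripts. Of the tested transcripts, 24.1% had a smaller SD in females and 10.8% a smaller SD in males. These shares are not limited to transcripts of a like level. PmDsup averaged 168 TPM over the 7 libraries, while 7341 tested transcripts averaged between 1 and 10 TPM. The part of level in its SD was not tested. Between female libraries, library 1 was lowest and library 3 highest, with ratios of 1.43 for library 2 over library 1 and 1.17 for library 3 over library 2. Library numbers are names and carry no time or dose, so no trend was tested.

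This order of the female libraries was shared by most transcripts that were called higher in females. Of these 4410 transcripts, 3803 (86.2%) were lowest in female library 1, intermediate in library 2 and highest in library 3. The same order was found in 34.9% of the 17583 tested transcripts without ties and in 9.16% of the 4074 transcripts called higher in males. For PmDsup the log2 difference between female libraries 3 and 1 was 0.75. For the 4409 other transcripts called higher in females the median was 1.05 (interquartile range 0.76 to 1.3), and 75.2% had a larger difference than PmDsup. Over all tested transcripts the median was 0.29. The order of PmDsup in the female libraries was therefore the usual one for such a transcript, and its spread was on the narrow side.

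The share of the library taken by those 4409 transcripts was lowest in female library 1 and highest in female library 3, as was that of PmDsup. Together they made up 25.5%, 35.8% and 46.9% of the sum of female libraries 1 to 3, and between 7.12% and 9.27% of the male libraries. PmDsup did not keep pace with them. It equalled 0.088%, 0.080% and 0.068% of their sum in female libraries 1 to 3 and between 0.087% and 0.116% in the male libraries. These transcripts were called from the same libraries, so their higher share in females is how they were chosen and is no result. The part of library composition in the level of PmDsup was not tested.

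**Figure D4:**
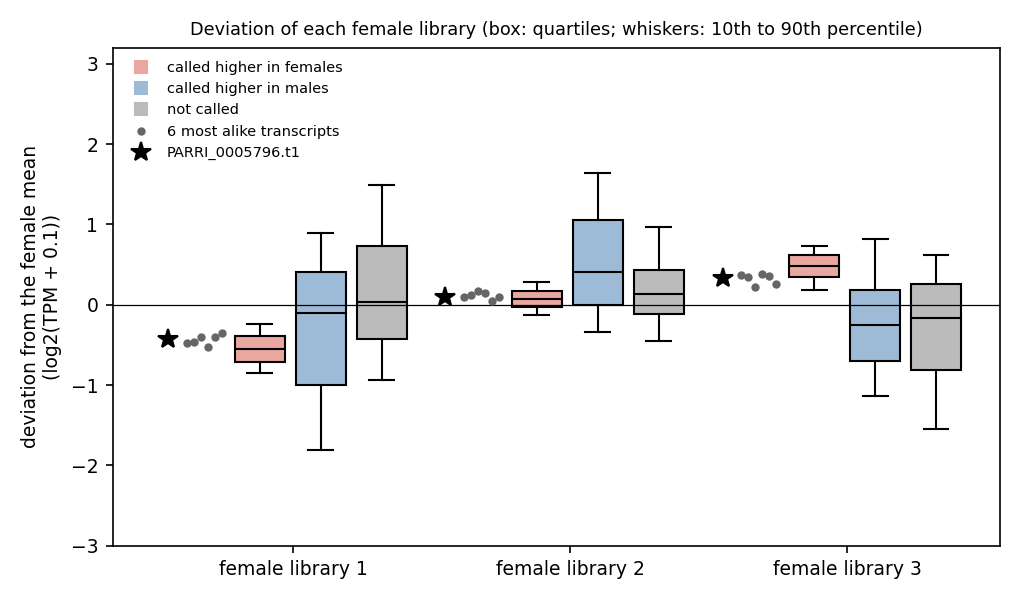
Deviation of each female library from the mean of the 3 female libraries, in log2(TPM + 0.1), for PmDsup (star), its 6 most alike transcripts (dots) and the tested transcripts called higher in females, called higher in males or not called (boxes with median and quartiles, whiskers from the 10th to the 90th percentile). PmDsup lies at -0.42, 0.10 and 0.33 in libraries 1 to 3, and the median of the other transcripts called higher in females at -0.56, 0.08 and 0.49.

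The transcripts most like PmDsup were found by the root mean square difference of log2(TPM + 0.1) over the 7 libraries, with each transcript centred on its own mean, among 10676 others with a mean of at least 10 TPM. The median over these was 0.97, and 641 were below 0.25. The most alike was PARRI_0006662.t1 at 0.06, with 53.0, 79.1 and 95.7 TPM in female libraries 1 to 3 and 19.99, 25.4, 21.4 and 23.8 TPM in male libraries 1 to 4. PARRI_0005795.t1, whose locus number is the one just below that of PmDsup, came next at 0.08. PARRI_0007669.t1, PARRI_0003697.t1, PARRI_0008540.t1 and PARRI_0013085.t1 followed, at 0.08 to 0.09. Their female means lay between 23.9 and 40.8 TPM and their male means between 7.02 and 12.2 TPM, so each was less abundant than PmDsup per length. Each of the 6 was called higher in females, with log2 differences between 1.63 and 1.88, and each was lowest in female library 1 and highest in female library 3. The likeness includes the sex difference itself, and the order of places depended on the scaling. When each library was rescaled to the same sum, the same 6 transcripts were the first 6, with a pseudocount of 1 TPM 3 of them were, and after quantile normalization 0 of them were, the lowest of the 6 being number 426.

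PARRI_0005795.t1 followed PmDsup closely in each library. It had 58.2, 87.7 and 102 TPM in female libraries 1 to 3, against 24.0, 28.0, 25.8 and 26.3 TPM in male libraries 1 to 4, and the log2 difference was 1.63 ± 0.26 (standard error) at a limma FDR of 0.0017. PmDsup was between 2.92 and 3.52 times as high as PARRI_0005795.t1 in the 7 libraries, with a coefficient of variation of 5.87% for this ratio. Of 6688 pairs of consecutive locus numbers with a mean of at least 10 TPM in both, 8 pairs (0.12%) were at least as alike, this pair included. The pair was singled out by this same measure, so a small share follows from that choice and is no separate result. The median over pairs was 0.78. The measure includes the sex difference, and in 1533 of the pairs (22.9%) both members were called higher in females. The 0.12% is for TMM scaling, where PARRI_0005795.t1 was number 2 in likeness. After quantile normalization it was number 426. The files give no name or role for PARRI_0005795.t1. Positions were not analysed here, so whether consecutive numbers are adjacent genes is not known from these data.

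The other loci numbered near PmDsup were called in both directions. The calls of PARRI_0005789.t1, PARRI_0005792.t1 and PARRI_0005800.t1 carry no weight, as given below, so no likeness to the shares over all tested transcripts is drawn. Among the 20 transcripts of the 10 locus numbers on each side, 19 were tested, 5 passed with the higher level in females and 4 with the higher level in males, against 23.9% and 25.3% of all tested transcripts, and 10 were not called. Their median log2 difference was -0.02. The one closest in level was PARRI_0005793.t1, with 254, 320 and 368 TPM in female libraries 1 to 3 and 123, 121, 118 and 104 TPM in male libraries 1 to 4 (log2 difference 1.42, standard error 0.23, limma FDR 0.0018). Its female libraries were all above its male libraries, as for PmDsup, but PmDsup over PARRI_0005793.t1 varied from 0.572 to 0.937 across the 7 libraries, and it was number 455 in likeness.

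PARRI_0005787.t1 and PARRI_0005788.t1 were also called higher in females, with log2 differences of 2.09 (standard error 0.38) and 2.25 (standard error 0.30). PARRI_0005800.t1 was weak, with 1.62, 4.03 and 3.95 TPM in female libraries 1 to 3 and listed at 0 in male libraries 1, 2 and 4, with 0.813 TPM in male library 3. It met the minimum of 1 TPM in 3 libraries only through the female libraries where it is high, and was not tested when any 1 of them was dropped, so its call carries no weight in the count of 5. In the other direction, PARRI_0005789.t1 had 0.228, 4.17 and 2.11 TPM in female libraries 1 to 3, against 81.5, 45.8, 77.7 and 79.8 TPM in male libraries 1 to 4. Between it and PmDsup lie the numbers of PARRI_0005790.t1 and PARRI_0005792.t1, both called higher in males, with 5.70 ± 2.40 and 0.619 ± 1.07 TPM in females (SD, n = 3) and 15.4 ± 2.75 and 10.4 ± 3.66 TPM in males (SD, n = 4). PARRI_0005789.t1 and PARRI_0005792.t1 met the minimum of 1 TPM in 3 libraries only with male libraries, where they are high. Their calls therefore carry no weight in the count of 4 higher in males. On the other side, PARRI_0005797.t1, the next number above PmDsup, had 32.1 ± 13.8 TPM in females (SD, n = 3) and 19.1 ± 3.30 TPM in males (SD, n = 4), and its libraries overlapped (limma FDR 0.12). PARRI_0005802.t1 was called higher in males, with a log2 difference of -1.43 (standard error 0.35). PARRI_0005797.t1 was named after its value was seen.

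**Figure D5:**
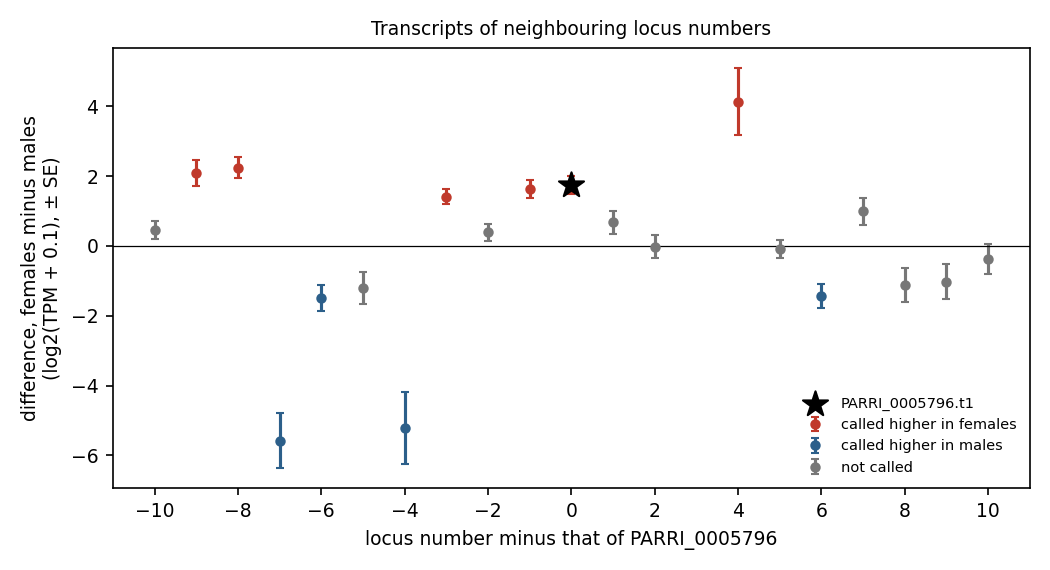
Log2 difference between the sexes (females minus males) with its standard error for the tested transcripts of the 10 locus numbers on each side of PmDsup, placed by locus number and coloured by their limma call. PmDsup is the star at 1.74, PARRI_0005795.t1 to its left lies at 1.63, and PARRI_0005789.t1 and PARRI_0005792.t1 lie lowest at -5.58 and -5.21. The calls of PARRI_0005789.t1, PARRI_0005792.t1 and PARRI_0005800.t1 carry no weight.

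Dsup is one of several tardigrade genes linked to stress tolerance, and 3 other families are linked to survival of drying, a state called anhydrobiosis. CAHS and SAHS are heat-soluble proteins, cytosolic and secreted, of which CAHS proteins form gels and filaments that are thought to protect cells, and AMNP is a family of tardigrade peroxidases. Of the 59 CAHS, SAHS and AMNP transcripts listed by the study, 57 were tested, of which 1 passed with the higher level in females and 11 with the higher level in males, against 23.9% and 25.3% of all tested transcripts. The 11 belonged to CAHS and AMNP, and their number was 22 when female replicate 1 was dropped, 7 when female replicate 3 was, 6 when male replicate 1 was and 7 when male replicate 3 was. Some of the CAHS calls met the minimum of 1 TPM in 3 libraries only with male libraries. Those calls carry no weight in the 11. The median log2 difference (females minus males) was -1.11 for 13 CAHS, -0.09 for 10 SAHS and -0.74 for 34 AMNP transcripts, beside -0.50 for all tested transcripts. The median of all varied with level, as given above, and the families were not set against transcripts of a like level.

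The transcript called in the direction of PmDsup was the SAHS transcript PARRI_0012415.t1. It had 283, 1034 and 436 TPM in female libraries 1 to 3, against 47.3, 61.7, 57.7 and 243 TPM in male libraries 1 to 4, and the log2 difference was 2.65 ± 0.64 (standard error) at a limma FDR of 0.011. It was therefore more abundant than PmDsup in females and much more variable in both sexes. Without male replicate 1, the CAHS transcript PARRI_0004919.t1 was also called higher in females (limma FDR 0.015). With all libraries it had 3316, 3177 and 2797 TPM in females and between 684 and 3654 TPM in males, which overlapped (limma FDR 0.10). The most abundant SAHS and AMNP transcripts, PARRI_0001327.t1 and PARRI_0009343.t1, had 9711 and 2200 TPM in females and 11129 and 2676 TPM in males, and neither passed the test (limma FDR 0.92 and 0.57).

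Per length, PmDsup was not at the top of these families in either sex, and its place among them was higher in females than in males. In females 19 of the 59 transcripts had a higher mean than PmDsup, and in males 39 did. Ordered from the highest among all 60, PmDsup was number 29, 22 and 13 in female libraries 1 to 3 and number 42, 33, 40 and 37 in male libraries 1 to 4. With TMM scaling its male libraries were among the most even. Of the 57 tested transcripts of these families, 5 had a smaller SD of log2 values in males than the 0.17 of PmDsup, while CAHS transcripts ranged from 0.18 to 1.69 and SAHS transcripts from 0.22 to 1.35.

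Most transcripts of these families had another order of the female libraries than PmDsup. Of the 57 tested transcripts, 9 were lowest in female library 1 and highest in library 3 with library 2 between them, which is the order of PmDsup, and 33 had the opposite order. Over all tested transcripts without ties the shares were 34.9% for the order of PmDsup and 22.9% for the opposite order. Among CAHS transcripts 0 of 13 had the order of PmDsup, among SAHS transcripts 4 of 10, and among AMNP transcripts 5 of 34. The higher place of PmDsup among the 60 in female library 3 thus went with both its own higher TPM and lower TPM of many of the others there. The cause of the differences between the female libraries was not tested.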

How the data were processed

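Reads were quantified by the authors against coding sequences with RSEM 1.3.3, and they deposited a signal per transcript, TPM rescaled by TMM, for 3 female and 4 male libraries. TPM corrects for length and removes depth, and TMM assumes that most transcripts do not differ, which matters where the sexes differ widely. The authors also deposited a DESeq2 1.38.0 table with mean normalized counts per sex, used here as their means, and with fold changes and p-values of the sexes, not used here.

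Females were compared with males by limma 3.58.1 in R 4.3.3. The model held sex alone and was fitted to log2(TPM + 0.1), the prior variance followed the mean level, tests were two-sided and p-values were adjusted by Benjamini-Hochberg, over transcripts with at least 1 TPM in at least 3 of 7 libraries. Python 3.11.15, pandas 2.3.3, NumPy 2.4.6, SciPy 1.17.1 and matplotlib 3.10.9 were used for the rest. Precision is given as the SD between libraries, since the deposited values carry no read depth per library.

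Named transcripts are PmDsup, the 6 most alike with a mean of at least 10 TPM, those called within 10 locus numbers, the CAHS, SAHS and AMNP transcripts called in its direction and the most abundant of each family, and the 2 next to it by difference among called transcripts averaging 100 TPM or more. The member and lists were chosen with earlier results of these data known. Alternatives were other pseudocounts, filters, scalings and priors, replicate number as a block and each library left out. None of the 24899 gene identifiers was matched to the RefSeq gene table, so sequences and positions were not analysed here.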

Additional observations from a re-analysis of the deposited data

Results flagged for a closer look

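Among 21 named transcripts, 3 had a male library that stood apart from the other 3, judged by the gap to its nearest neighbour as a fraction of the whole range, a rule that picks out about 1 group in 20 by chance. PmDsup was not one of them. For the SAHS transcript PARRI_0012415.t1, male library 4 stood at 243 TPM against 47.3 to 61.7 TPM in the other male libraries, and the gap was 0.926 of the range. For PARRI_0005789.t1, male library 2 had 45.8 TPM against 77.7 to 81.5 TPM, a gap of 0.893 of the range. For PARRI_0005800.t1, male library 3 had 0.813 TPM and the others were listed at 0, so the gap was 1 of the range. With the others at 0 the gap is 1 for any value, so the rate of 1 group in 20 does not apply to this transcript. The causes were not tested.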

How the results depend on the processing

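The log2 difference of PmDsup (females minus males) was 1.74 and kept its direction and its side of the threshold in the 7 fits without 1 library and in the 10 other settings, where it lay between 1.71 and 1.82 with a limma FDR between 0.00093 and 0.0089. Quantile normalization moved the median of all tested transcripts to -0.01 and left PmDsup at 1.71, or 1.72 above that median instead of 2.24. With the filter on a mean of at least 5 TPM the median was -0.03, and PmDsup was 1.77 above it. With the replicate block the difference was 1.74 (limma FDR 0.0089) and 3874 and 3712 transcripts were called higher in females and in males. The numbers share no stated animal or day, and the deviations of same-numbered libraries correlated at -0.01, 0.03 and 0.25. The block changed no call of PmDsup. The number called higher in males fell to 3005 with a filter on a mean of at least 5 TPM, where fewer transcripts were tested, and lay between 3065 (without male replicate 1) and 5552 (without female replicate 1) with a library left out. The number called higher in females lay between 3135 and 4938. The log2 difference of PmDsup between female libraries 3 and 1 was 0.75 and lay between 0.50 (libraries rescaled to the same sum) and 0.85 (centred on the median) under the alternatives. Of 336 values of the other 20 named transcripts under the alternatives, 334 kept their call. The exceptions were PARRI_0008726.t1 without female replicate 3 (1.42) and PARRI_0004919.t1 without male replicate 1 (1.67). PARRI_0005800.t1 gave no value in 4 settings, without female replicate 1, 2 or 3 and with the filter on a mean of 5 TPM, because it was no longer tested. The places in the order of likeness were compared under other settings chosen after seeing the data, and PARRI_0005795.t1 was number 2 when libraries were rescaled to the same sum, 7 with a pseudocount of 1 TPM and 426 after quantile normalization.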
